A study of Bos taurus with 15 samples.

Results

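The epidermal growth factor (EGF) family ligands AREG, EREG, HBEGF, EGF, TGFA and BTC and the receptors EGFR, ERBB2 and ERBB3 were looked up by symbol among the 27270 genes of a droplet-based single-cell RNA sequencing series of cattle. Of these 9 genes, 8 had a row, and EGF is not analysed here. The series held 11 newborn (NB) libraries and 4 adult (AD) libraries. The newborn ones were from the reticulum and omasum, the abomasum, the small intestine (duodenum, jejunum and ileum), the large intestine (cecum, colon and rectum), the salivary gland and the liver, and the adult ones from duodenum, jejunum, cecum and colon. All animals were Holstein dairy cattle that carried no genetic change or treatment in the labels. Each tissue and stage was 1 library. Per the study's methods the newborn samples came from 3 calves, with the calf behind each library not given in the sources used here, and the adult samples from a single lactating cow. The newborn forestomach (reticulum and omasum), abomasum and intestine were all treated with EDTA and trypsin. Collagenase, hyaluronidase and dispase followed for the forestomach and abomasum, and a lamina propria kit for the intestine. This kit was used alone for AD duodenum and cecum, while AD jejunum and colon were dissociated with a multi-tissue kit. Between forestomach and intestine, region and enzymes therefore cannot be told apart, while the abomasum shared the enzymes of the forestomach. Between stages, stage, animal and dissociation cannot be told apart. No difference below has a test, since no group of cells was measured in replicate libraries of 1 tissue and stage.

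EGF family ligands are made as membrane proteins, and proteases of the ADAM family cut them free so that they reach receptors on the same or on neighbouring cells. AREG, TGFA and EGF bind EGFR, while HBEGF, BTC and EREG bind both EGFR and ERBB4. ERBB2 has no known ligand and serves as the preferred partner of the other receptors. ERBB3 has an impaired kinase, binds neuregulins, and signals in pairs, mostly with ERBB2. In epithelia these receptors drive proliferation, migration and repair, and in the gut EGF family ligands are supplied by stromal and immune cells as well as by the epithelium. On chromosome 6 the RefSeq annotation of cattle places EREG, AREG and BTC next to each other.

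The libraries held 17707625 to 129458578 UMIs (molecules counted once each), and 119798 of 172405 barcodes passed filters on genes, mitochondrial UMIs and doublets. Barcodes were classed by 1 gene UMI. The epithelium class had EPCAM or KRT14, and the COL1A2, PECAM1 and C1QA classes stood for fibroblast-like, endothelial-like and macrophage-like barcodes. A barcode with a UMI of another class was left out. The reticulum and omasum gave 6131 and 9049 epithelial barcodes with a median of 9829 and 9389 UMIs, and all 7 basal keratinocyte markers were above 10 CPM in both. Fibroblast markers were above 10 CPM for 6 of 6 genes in the COL1A2 barcodes of 11 libraries, and macrophage markers for 5 or 6 of 6 genes in the C1QA barcodes of 13. In PECAM1 barcodes this count ran from 1 of 6 endothelial markers in AD duodenum to 6 of 6 in the 6 NB intestinal libraries. Each of these lists includes the gene that defines its class. In the 11 libraries the COL1A2 barcodes also had 3 or 4 of 4 smooth muscle and 3 or 4 of 4 pericyte markers above 10 CPM. Pairs of libraries shared at most 36 barcode sequences. Levels are CPM, the UMIs of a gene scaled to the summed UMIs of its class and library. A level is compared between libraries, classes or clusters for 1 gene at a time, and their 95% Poisson intervals cover counting error only. A lower level in a class can reflect fewer cells of one type within it or less RNA per cell, and the 2 cannot be told apart.

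AREG (amphiregulin) and HBEGF (heparin-binding EGF-like growth factor) were the ligands that were higher in newborn forestomach epithelium than in newborn intestinal epithelium. AREG was at 131 CPM in reticulum (8439 UMIs, interval 128 to 134) and at 27.4 CPM in omasum (2444 UMIs, 26.3 to 28.5). In the 6 NB intestinal libraries it ran from 6.10 CPM in duodenum through a median of 13.4 to 22.1 CPM in rectum. The 2 groups did not overlap, but omasum stood close to rectum, at 1.24 times its level, while reticulum stood 4.78 times (4.57 to 5.00) above omasum. NB abomasum, the glandular stomach, was lower than every one of these at 1.98 CPM, and NB liver was at 7.39 CPM on 4 UMIs.

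HBEGF, which is also a membrane-bound ligand before it is shed, had the same order of the 2 forestomach libraries at a smaller distance. It was at 42.7 CPM in reticulum (41.1 to 44.3) and 21.5 CPM in omasum (20.5 to 22.5), a ratio of 1.99 (1.87 to 2.11). The NB intestine ran from 1.94 CPM in duodenum through a median of 4.78 to 7.40 CPM in cecum, so that the lower forestomach library was 2.91 times the highest intestinal one. Abomasum was at 2.41 CPM.

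EGFR, the receptor of all these ligands, was higher in forestomach than in intestinal epithelium too, and here the 2 forestomach libraries were close to each other. It was at 11.1 CPM in reticulum (10.3 to 11.98) and at 12.9 CPM in omasum (12.2 to 13.7). The NB intestine ran from 0.173 CPM in jejunum (1 UMI) through a median of 0.781 to 1.91 CPM in rectum, and abomasum was at 0.792 CPM. NB liver was at 11.1 CPM (4.07 to 24.1) on 6 UMIs, level with the forestomach. The lower forestomach library stood 5.83 times above the highest intestinal one, although the intestinal values rest on 1 to 54 UMIs each.

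ERBB3 went the other way. It was at 20.4 CPM in reticulum and 33.2 CPM in omasum, and ran from 68.1 CPM in ileum through a median of 80.4 to 105 CPM in rectum, with abomasum at 63.1 CPM. ERBB2 did not separate the regions. It was at 30.0 CPM in reticulum and 47.6 CPM in omasum, against 25.7 CPM in ileum to 51.8 CPM in rectum. Both receptors were higher in omasum than in reticulum, ERBB2 by 1.58 times (1.50 to 1.67) and ERBB3 by 1.62 times (1.52 to 1.73). NB liver had the highest newborn ERBB2 level, 129 CPM (101 to 163) in 92 barcodes.

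**Figure D1:**
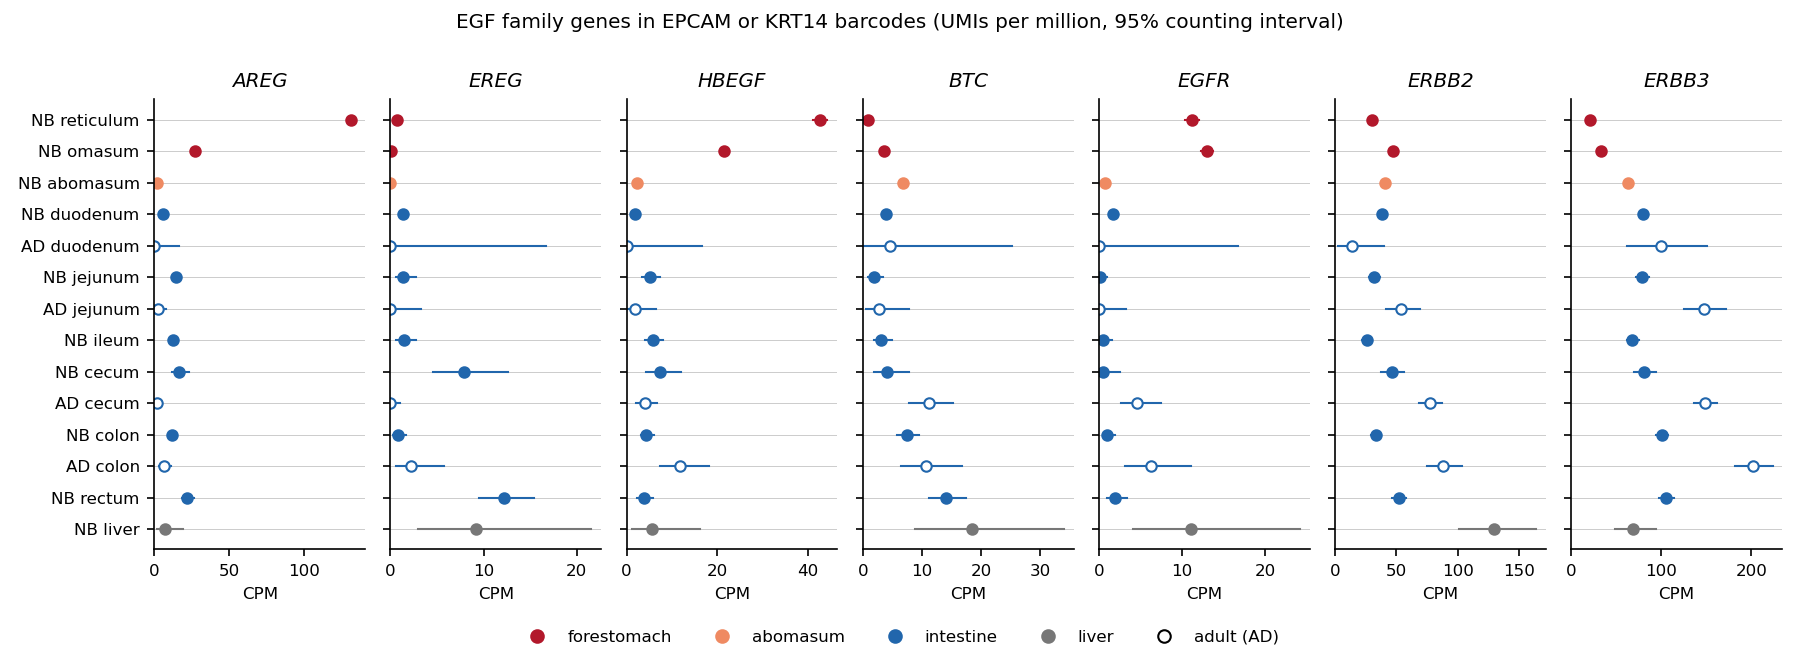
Level of 7 members in epithelial barcodes of 14 libraries, in CPM on linear axes, with the exact 95% Poisson interval of each library as a bar. AREG, HBEGF and EGFR are highest in reticulum and omasum among the newborn gut libraries, while ERBB3 is lowest there.

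BTC (betacellulin) and EREG (epiregulin) were low in the forestomach epithelium. BTC was at 0.869 CPM in reticulum and 3.59 CPM in omasum, where the ratio of omasum to reticulum was 4.13 (3.1 to 5.59). It overlapped the NB intestine, which ran from 1.90 CPM in jejunum through a median of 4.02 to 14.1 CPM in rectum. EREG was at 0.729 CPM in reticulum (47 UMIs) and 0.0897 CPM in omasum (8 UMIs). It had 0 UMIs in abomasum, which allows a level of up to 0.054 CPM. In the NB gut its higher levels were in the large intestine, 7.86 CPM in cecum (17 UMIs) and 12.2 CPM in rectum (70 UMIs), but NB colon between them was at 0.805 CPM. NB liver was at 9.24 CPM on 5 UMIs. TGFA (transforming growth factor alpha) was at or below 1.13 CPM in every class and library compared, with 12 UMIs in each forestomach epithelium.

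Over the 8746 genes at or above 10 CPM in 1 group, a gene was called where the mean log2(CPM + 5) of the regions differed by at least 1 and their libraries did not overlap. On this rule 3 of 7 members tested were higher in forestomach epithelium, AREG (log2 difference 1.86), HBEGF (1.89) and EGFR (1.52), and 11.4 percent of all genes were called in this direction. ERBB3 (-1.53) was the 1 of 7 that was lower, and 11.4 percent of all genes were called lower. BTC (-0.52), EREG (-0.63) and ERBB2 (0.04) were not called. The median difference of the 7 members was 0.04, beside 0.09 over all genes tested. HBEGF and EGFR reached 10 CPM only in the forestomach, and EREG and BTC only in the intestine, so these counts depend in part on that limit. On the linear scale the forestomach mean was 5.70 times the intestinal mean for AREG, 6.75 times for HBEGF and 12.4 times for EGFR. The AREG difference fell to 0.83 without reticulum, and the call was then lost. It was also lost, with the direction kept, where barcodes were thinned to 1000 UMIs, kept at more than 4000 genes, kept only under 10% mitochondrial UMIs, or scaled without the genes above 1% of UMIs.

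The share of barcodes with an AREG UMI was 33.3% in reticulum epithelium and 13.2% in omasum epithelium. In PECAM1 barcodes of the same libraries, which should hold little epithelial RNA, it was 3.39% and 1.05%, at a median of 3546 and 3018 UMIs. After thinning to 1000 UMIs per barcode the shares were 9.01% in reticulum epithelium and 1.74% in reticulum PECAM1 barcodes. HBEGF was found in 22.8% and 15.3% of reticulum and omasum epithelial barcodes and in 13.6% and 7.37% of the shallower PECAM1 barcodes. After thinning these shares were 3.78% and 2.16% in epithelium and 2.91% and 1.05% in PECAM1 barcodes. The 2 classes were thus closer in HBEGF than they were in AREG in reticulum. HBEGF in PECAM1 barcodes is given below as a level of that class, so these shares do not measure its background. Of all AREG UMIs in kept barcodes, 96.6% in reticulum and 95.5% in omasum were in the epithelium class, and the shares for HBEGF were 95.7% and 95.1% and for EGFR 95.9% and 96.9%. These shares were close to the epithelial share of all UMIs in kept barcodes, 94.2% in reticulum and 95.6% in omasum, and ERBB2 and ERBB3 were at 95.1% to 97.2%.

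Within the reticulum the ligands varied more between epithelial clusters than between the 2 forestomach tissues. Clusters were made without the members among the clustering genes. The genes given as leading a cluster were chosen after their values were seen. In 13 clusters AREG ran from 14.7 to 252 CPM. In the 6 clusters above 100 CPM, a cut chosen after the values were seen, HBEGF was at 53.2 to 77.3 CPM, and in the other 7 it was at 2.33 to 29.3 CPM, so AREG and HBEGF were high in the same clusters of this tissue. EGFR did not follow this split, with 5.05 to 20.6 CPM in the first 6 and 0 to 24.8 CPM in the other 7. ERBB3 overlapped as well, at 9.30 to 40.4 CPM and 0 to 25.6 CPM. The summed level of the immediate early genes, the first genes induced by growth factors and also by cell handling, was 15820 to 26240 CPM in the first 6 clusters and 5427 to 23400 CPM in the other 7. The highest of the latter was a cluster of 44 barcodes led by genes of fibroblasts and smooth muscle. The part of this list in the AREG and HBEGF levels was not tested. The first 6 clusters had a median of 8025 to 14830 UMIs and 3.79 to 8.36% mitochondrial UMIs. The other 7 had 1435 to 12781 UMIs and 0.58 to 17.6%, and the part of depth and mitochondrial share was not tested.

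Pairs of clusters with like leading genes stood on both sides of that split. Of 2 mitotic-like clusters, one (594 barcodes) had AREG at 212 CPM, HBEGF at 66.2 CPM and immediate early genes at 22310 CPM. The other (500 barcodes) had AREG at 22.0 CPM, HBEGF at 5.78 CPM and immediate early genes at 9271 CPM. Likewise, of 2 clusters that expressed DCN, one with CXCL3 and CCN2 among its leading genes (479 barcodes) had AREG at 252 CPM, HBEGF at 70.5 CPM and EGFR at 20.6 CPM. The one led by DCN and RGS4 (601 barcodes) had AREG at 17.4 CPM, HBEGF at 2.33 CPM and EGFR at 24.8 CPM, the highest EGFR level of the reticulum clusters. EGFR was thus high in both while the ligands differed. The suprabasal-like cluster (425 barcodes), in which keratinocytes have left the basal layer, had AREG at 176 CPM, HBEGF at 63.6 CPM and the highest ERBB3 level of the tissue, 40.4 CPM.

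In omasum the 15 clusters ran from 0 to 95.5 CPM for AREG and from 5.79 to 44.6 CPM for HBEGF. AREG and HBEGF did not go together there as in reticulum. A cluster of 31 barcodes with endothelial markers had 4 UMIs of HBEGF (interval 12.1 to 114 CPM) and 0 UMIs of AREG (interval up to 41.1 CPM). Apart from it, HBEGF was highest, at 31.0 CPM, in a cluster of 1174 barcodes with AREG at 20.8 CPM. The cluster second in AREG, at 57.7 CPM, had HBEGF at 18.3 CPM. The highest AREG level was again in a cluster led by CXCL3 and DCN (743 barcodes), which had the highest EGFR level as well, 30.5 CPM, and immediate early genes at 20580 CPM. The suprabasal-like cluster (647 barcodes) had the highest ERBB2 level, 80.5 CPM, the highest ERBB3 level, 77.6 CPM, and the highest BTC level, 19.7 CPM. It made up 7.15% of omasum epithelial barcodes and 51.2% of their BTC UMIs, while its EGFR level was 6.96 CPM. ERBB3 was therefore highest in the suprabasal-like cluster of both forestomach tissues, and BTC was concentrated there in omasum.

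**Figure D2:**
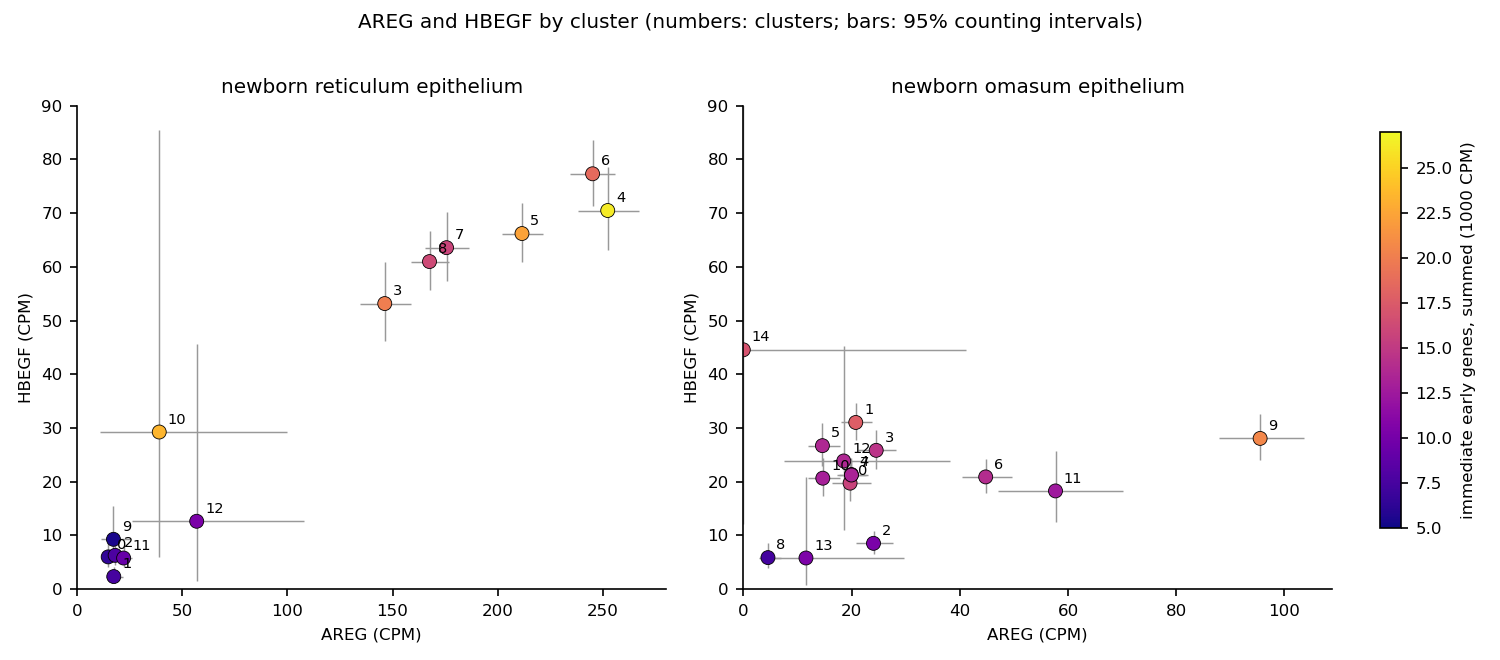
AREG against HBEGF in CPM, 1 point for each epithelial cluster of reticulum and omasum, coloured by the summed level of immediate early genes in 1000 CPM. In reticulum 6 clusters lie at 146 to 252 CPM of AREG and 53.2 to 77.3 CPM of HBEGF, apart from the other 7. In omasum the point at 44.6 CPM of HBEGF is a cluster of 31 barcodes with 4 UMIs of HBEGF and 0 of AREG.

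The abomasum epithelium, low in AREG and HBEGF as a whole, held 1 cluster in which 6 members were each at their highest there. This cluster (224 barcodes), led by the surface mucous genes GKN1 and TFF1 and by PGC, had AREG at 22.7 CPM, HBEGF at 13.5 CPM, BTC at 36.9 CPM, EGFR at 4.92 CPM, ERBB2 at 198 CPM and ERBB3 at 269 CPM. A cluster led by TFF2 and TFF1 followed, with ERBB3 at 225 CPM, ERBB2 at 125 CPM and BTC at 29.9 CPM. The cluster led by the chief cell genes LYZ2, PGA5 and CYM had the lowest levels of both receptors among clusters of at least 30 barcodes, ERBB3 at 13.4 CPM and ERBB2 at 16.4 CPM.

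In the intestinal epithelium small groups of barcodes carried much of the AREG. In NB duodenum a cluster of 92 barcodes led by the stress genes ZFAND2A and CRYAB, with EGR1 and CCN2, had AREG at 37.3 CPM and HBEGF at 14.9 CPM and held 50 of the 189 AREG UMIs of this epithelium, and 34 of the 189 were in 1 barcode. The highest AREG level of this tissue, 55.1 CPM (25.2 to 104.6) on 9 UMIs, was in a cluster of 44 barcodes with fibroblast markers. In NB colon a cluster of 43 barcodes had AREG at 53.6 CPM and HBEGF at 26.2 CPM with immediate early genes at 24720 CPM. In NB rectum, the intestinal library closest to omasum, 2 clusters led by immune genes (44 and 58 barcodes) had AREG at 104 and 71.7 CPM. Clusters with at least 3 raised markers of a non-epithelial type that were at least as many as those of any epithelial type, these 2 among 3, held 77 of the 127 AREG UMIs in 195 barcodes. This alternative was chosen after seeing the data. The AREG level of rectum without these clusters was 11.7 CPM. Without such clusters reticulum stayed at 131 CPM and omasum at 27.5 CPM, and the highest intestinal level was 17.3 CPM, in cecum. EREG and BTC were highest elsewhere in rectum, both at 32.5 CPM in an absorptive-like cluster of 49 barcodes, which had ERBB3 at 192 CPM. In AD jejunum ERBB3 was at 276 CPM (192 to 384) in a tuft-like cluster of 33 barcodes and at 10.1 to 178 CPM in the other clusters, which had fewer than 30 barcodes each. In AD cecum it was at 281 CPM (180.1 to 418) in a tuft-like cluster of 30 barcodes and, close to this, at 270.0 CPM in an absorptive-like cluster of 24.

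COL1A2 barcodes, the fibroblast-like class, had a higher AREG level in each NB intestinal library than the epithelium of that library. AREG was at 9.83 CPM in reticulum (2 UMIs in 84 barcodes), 29.9 CPM in omasum (12 UMIs in 208 barcodes) and 34.8 CPM in abomasum. The NB intestine ran from 23.7 CPM in ileum through duodenum at 128 CPM to colon at 346 CPM (429 UMIs, 314 to 381), and AD colon was at 118 CPM. NB colon stood apart from the other intestinal libraries, with AREG in 21.9% of its 196 COL1A2 barcodes. In AD colon 51 of the 117 UMIs were in 1 barcode, and the level without it was 66.3 CPM. Of all AREG UMIs in kept barcodes, COL1A2 barcodes held 22.4 to 57.4% in NB duodenum, jejunum, cecum and colon. In NB ileum and rectum they held 21.0% and 17.9%. Barcodes with PTPRC outside the 4 classes held more in these 2, at least 26.0% and 57.8%.

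BTC and ERBB3 were lower in the forestomach COL1A2 barcodes than in those of the NB intestine. BTC was at 4.91 CPM in reticulum (1 UMI) and had 0 UMIs in omasum, against 6.66 CPM in cecum through a median of 15.1 to 17.1 CPM in duodenum, with abomasum highest at 33.2 CPM. ERBB3 had 0 UMIs in reticulum and 2 UMIs in omasum (4.98 CPM), against 6.48 to 22.6 CPM. Of 5 members tested 0 were called higher in the forestomach, where 4.37 percent of 9607 genes were called, and 2 were called lower, BTC (log2 difference -1.36) and ERBB3 (-1.49), where 8.58 percent of genes were called. AREG differed by -1.72 but the libraries overlapped, and EGFR (-0.45) and ERBB2 (0.46) were not called. The median of the 5 members was -1.36, beside -0.16 over all genes tested. BTC, ERBB3 and EGFR reached 10 CPM only in the intestine, so these counts and this median depend in part on that limit. In simulated counts 273 of 8625 unchanged genes were called higher or lower in this comparison. The 2 calls rest on 1 and 2 forestomach UMIs, so that a difference in these genes was barely detectable at this depth, and they were lost where barcodes with other class genes were kept. Basal keratinocyte markers summed to 1253 and 1227 CPM in these reticulum and omasum barcodes and to 7.73 to 25.6 CPM in the other libraries, and their part in the levels was not tested.

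Within the COL1A2 barcodes of most libraries AREG was concentrated in few clusters, and most of these also had NRG1 (neuregulin 1), the ligand of ERBB3. In NB duodenum 1 cluster of 20.6% of barcodes held 82.8% of the AREG UMIs, with AREG at 553 CPM and NRG1 at 748 CPM. In NB jejunum 3.12% of barcodes held 72.9%, with AREG at 875 CPM and NRG1 at 1727 CPM, and in NB cecum 2.83% held 54.7%, at 1487 and 781 CPM. In AD colon 25.2% of barcodes held 92.3%, at 503 and 638 CPM. AREG was more spread in NB colon and rectum. In NB colon 34.2% of barcodes held 69.7%, with AREG at 645 CPM, and a second cluster had AREG at 550 CPM. The top of 19 clusters in rectum held 20.1% of the AREG UMIs. Of the top AREG clusters of 9 libraries, 7 had NRG1 at 100 CPM or more, the exceptions being omasum (0 CPM) and rectum (96.9 CPM, where AREG was at 226 CPM). Some of these clusters had markers of other cell types. The plasma cell genes JCHAIN, MZB1 and DERL3 were raised in that of NB colon, the T cell genes CD3E and CD3D in that of AD colon, and AIF1 and BLA-DQB were among the leading genes in that of NB duodenum, and the part of such RNA in the AREG levels was not tested. Of 11 clusters with AREG at 100 CPM or more among 71 clusters of at least 30 barcodes, 10 had NRG1 at 100 CPM or more, while 19 of the 71 did. NRG1 was named after its values were seen.

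The clusters with the most BTC were other ones in most libraries. In abomasum 12.2% of COL1A2 barcodes, led by DKK1, CSDC2 and NET1, held 76.2% of the BTC UMIs at 193 CPM, with 0 UMIs of AREG and of NRG1. The top BTC clusters of duodenum, jejunum and ileum were at 84.1, 80.2 and 58.1 CPM. Of the top BTC clusters of the 8 libraries with a BTC UMI, 3 had NRG1 at 100 CPM or more, among them that of NB colon (BTC 21.2 CPM, AREG 550 CPM) and that of rectum (BTC 33.2 CPM, AREG 107 CPM). Most of these were not clusters of fibroblast markers. The smooth muscle genes ACTA2, MYH11 and TAGLN were raised in the top BTC clusters of abomasum, duodenum, jejunum and cecum, and the pericyte genes PDGFRB and NOTCH3 in that of ileum, while those of duodenum and ileum had mitotic markers as well. AREG had 0 UMIs in all 5. AREG and BTC, neighbours on the chromosome, were thus highest in different clusters of COL1A2 barcodes there, and the part of smooth muscle and pericyte RNA in this was not tested. Of 10 clusters with BTC at 30 CPM or more, 8 had AREG under 10 CPM. Low AREG was common whatever the BTC level. The median cluster had AREG at 0 CPM in abomasum, duodenum, jejunum and ileum and at 1.93 CPM in cecum. It was at 19.7 CPM in rectum, 32.6 CPM in omasum, and 275 and 251 CPM in NB and AD colon. ERBB3 in the COL1A2 barcodes of the intestine was mostly counted in clusters with the glial gene SOX10, at 320 to 425 CPM in the NB libraries. These clusters held 38 of 45 ERBB3 UMIs in NB duodenum, 41 of 52 in jejunum, 35 of 37 in ileum, 102 of 115 in cecum, 15 of 15 in NB colon, 106 of 198 in rectum and 18 of 18 in AD colon. The lower ERBB3 level of the forestomach COL1A2 barcodes, given above, was thus set beside intestinal levels that came mostly from such clusters.

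**Figure D3:**
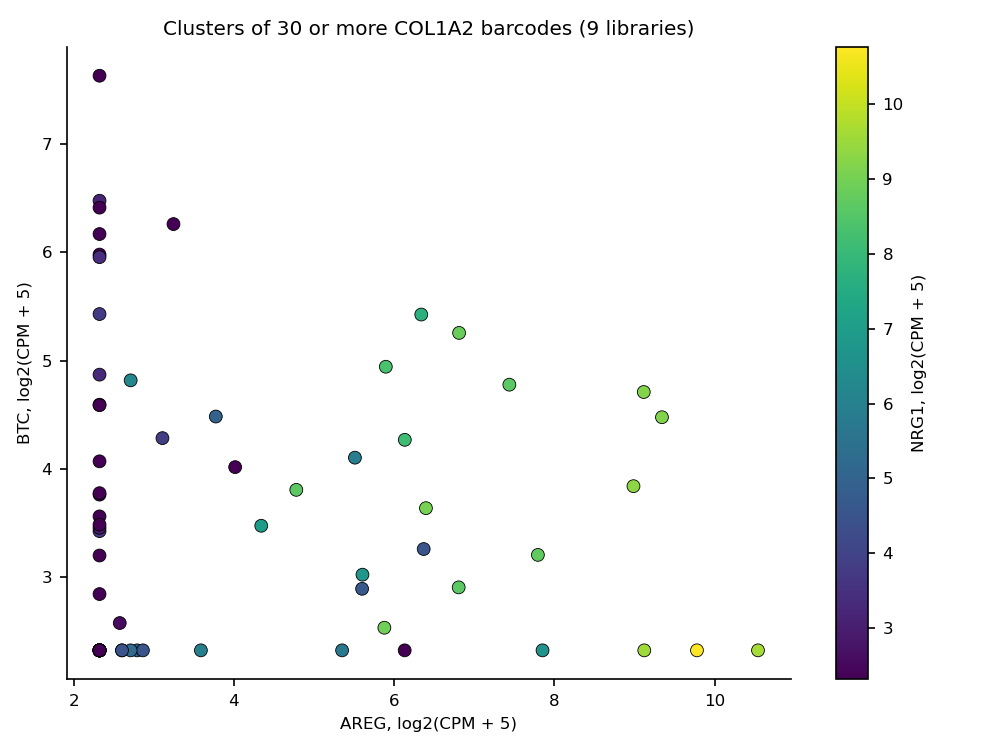
AREG against BTC as log2(CPM + 5), 1 point for each cluster of at least 30 COL1A2 barcodes in 9 libraries, coloured by NRG1. Clusters high in AREG mostly have high NRG1, while the highest BTC cluster, that of abomasum at 193 CPM, has 0 UMIs of both.

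In PECAM1 barcodes, the endothelial-like class, HBEGF was higher in the forestomach than in the NB intestine. It was at 36.1 CPM in reticulum (28 UMIs, 24.02 to 52.2) and 19.9 CPM in omasum (7 UMIs, 7.998 to 41.0), against 3.67 CPM in ileum through a median of 5.78 to 11.96 CPM in jejunum. This comparison was added after these values were seen. Of 2 members tested 1 was higher, HBEGF (log2 difference 1.44), where 1.89 percent of 8948 genes were called, and 0 were lower, where 6.75 percent were called. The median of the 2 members was 0.84, beside -0.15 over all genes. The call was lost with thinning to 1000 UMIs, where the difference was 0.91.

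Basal keratinocyte markers were higher in these forestomach barcodes too. They summed to 1115 and 1194 CPM in reticulum and omasum PECAM1 barcodes, with 5 of 7 above 10 CPM and KRT14 at 0 by construction, against 257 to 536 CPM in the NB intestine. The list includes ITGB4 and ITGA6 and had such sums in intestinal barcodes, so it does not measure keratinocyte RNA alone. Endothelial markers were above 10 CPM for 5 of 6 genes in both reticulum and omasum. AREG was in PECAM1 barcodes at 0.0592 times (0.0217 to 0.129) its epithelial level in reticulum and 0.104 times (0.00263 to 0.579) in omasum. HBEGF was at 0.846 times (0.561 to 1.23) and 0.925 times (0.372 to 1.91). The 2 genes thus differed in this ratio in reticulum, where their intervals did not overlap, and in omasum the AREG ratio rests on 1 UMI.

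**Figure D4:**
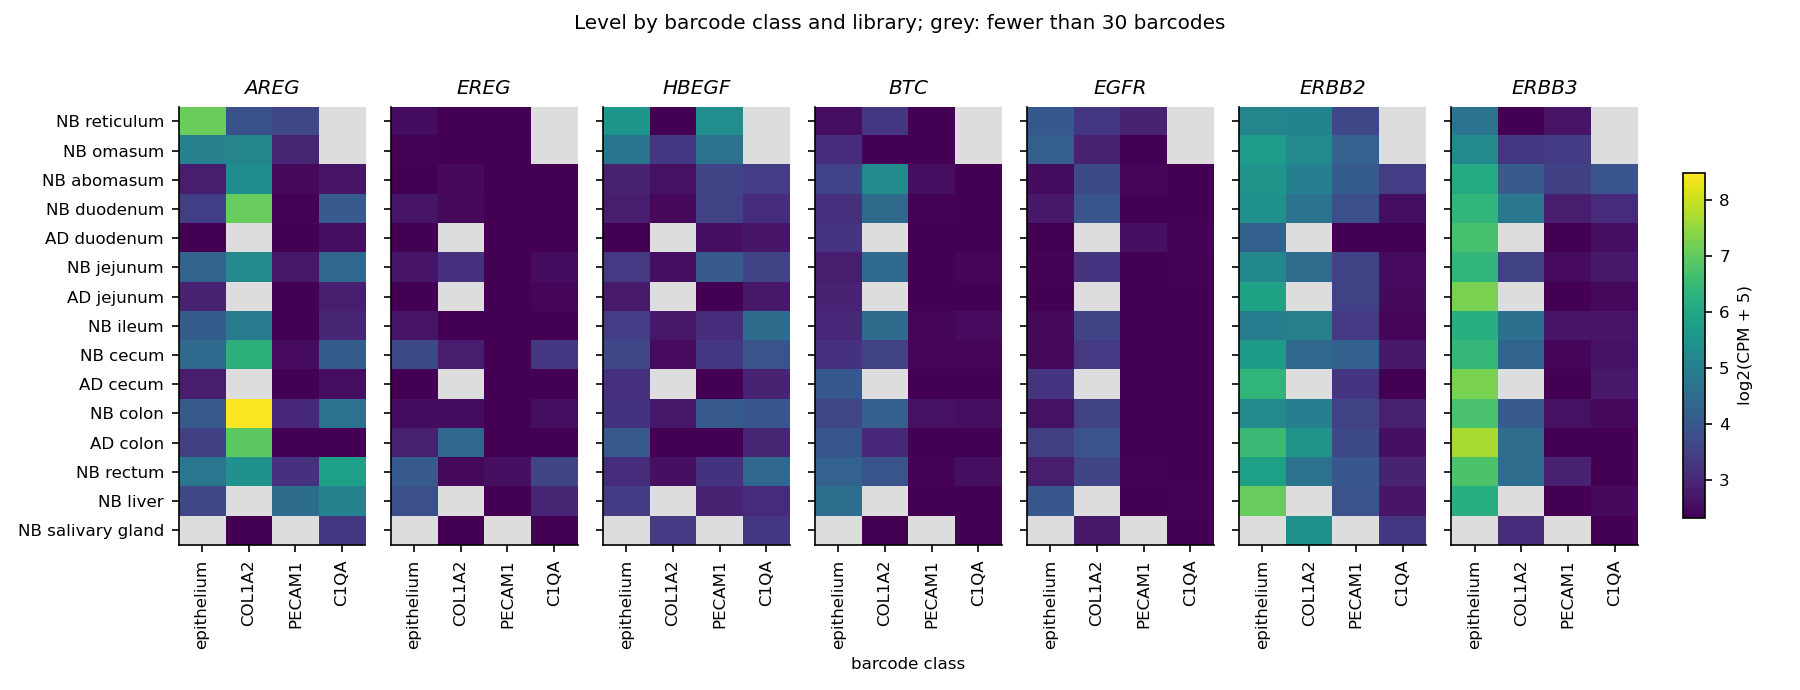
Heatmap of the member levels as log2(CPM + 5), with 1 panel for each member drawn, 1 row for each library and 1 column for each of the 4 barcode classes. Grey marks a class with fewer than 30 barcodes. AREG is high in reticulum epithelium and in COL1A2 barcodes of NB colon (346 CPM), and ERBB2 and ERBB3 have their highest levels in epithelium.

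C1QA barcodes, the macrophage-like class, had AREG and HBEGF in every NB intestinal library, while the forestomach had only 4 and 2 such barcodes and was not compared. AREG was at 12.2 CPM in NB duodenum and 0.834 CPM in AD duodenum, at 16.3 and 2.17 CPM in jejunum, at 12.7 and 0.827 CPM in cecum, and at 20.3 CPM and 0 UMIs in colon. NB was the higher stage in all 4 tissues. The ratio of NB to AD was 14.6 (5.31 to 56.1) in duodenum, 7.50 (5.49 to 10.4) in jejunum and 15.3 (2.67 to 613) in cecum. In colon it was 13.7, taking 3 counts in the AD library. The exact lower limit in colon with the counting error of both libraries was 10.7. HBEGF was 3.69 and 1.46 CPM in duodenum, 7.001 and 1.72 CPM in jejunum, 9.88 and 2.48 CPM in cecum, and 10.8 and 2.95 CPM in colon, and NB was 2.53 to 4.07 times AD.

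By the same size of difference in all 4 tissues, 1 of 2 members tested was higher in NB C1QA barcodes, AREG (mean log2 difference 1.77), where 1.53 percent of 8580 genes were called, and 0 were lower, where 1.39 percent were called. HBEGF was at 0.81. The median of the 2 was 1.29, beside -0.03 over all genes. Both members reached the limit of 10 CPM only in NB libraries, so these counts and this median depend on that limit. Single barcodes held much of the AREG, with 30 of 43 UMIs in NB duodenum and 27 of 45 in NB colon in 1 barcode each. Without these the levels were 3.69 and 8.10 CPM, and the call was lost where the highest barcode of every library was left out. It was also lost where other class genes were not excluded, with at least 2 UMIs of the class gene, and after thinning. Without the highest NB barcode alone the ratio of NB to AD was 4.42 in duodenum, 6.6 in jejunum, 12.3 in cecum and at least 5.49 in colon, and without that of both stages it was 17.7 in duodenum, on 1 AD UMI, and 11.3 in jejunum, so NB stayed the higher stage in these tissues. Immediate early genes summed to 23230 to 53180 CPM in the C1QA barcodes of the NB intestine and to 5405 to 14520 CPM in those of AD, and their part in the difference was not tested. Over the 13 libraries with this class, T or natural killer cell markers summed to 422.5 to 2362 CPM, highest in AD colon. Plasma cell markers summed to 24.1 to 14150 CPM, highest in AD duodenum, and the part of both was not tested. NB rectum had the highest AREG level of this class, 50.7 CPM, and NB liver was at 28.7 CPM on 777 UMIs in 370 barcodes.

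In the epithelium of jejunum, cecum and colon, ERBB2 and ERBB3 were higher in the adult, and AREG in the newborn. ERBB3 was at 78.9 CPM in NB and 147 CPM in AD jejunum, at 81.3 and 149 CPM in cecum, and at 101 and 202 CPM in colon, with AD at 1.87 times (1.55 to 2.23), 1.83 times (1.54 to 2.18) and 2.00 times (1.77 to 2.27) NB. ERBB2 was 1.70, 1.67 and 2.67 times higher in AD. AD duodenum, with 40 epithelial barcodes, had 0 UMIs of AREG, HBEGF and EGFR, which allows up to 13.6 CPM of each, and was not in these comparisons. Its ERBB2 level went the other way, at 13.6 CPM on 3 UMIs against 38.2 CPM in NB, a ratio of NB to AD of 2.81 (0.958 to 13.6), and ERBB3 was at 79.5 CPM in NB and 99.7 CPM in AD (0.797, 0.525 to 1.27). AD duodenum also had the highest summed plasma cell markers of the epithelium class in 14 libraries, 57090 CPM. Its T or natural killer cell markers were the highest too, at 598.4 CPM, and the part of both was not tested.

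AREG was at 14.5 CPM in NB and 2.69 CPM in AD jejunum, at 16.6 and 2.00 CPM in cecum, and at 11.7 and 6.22 CPM in colon. NB was 5.40 times (1.79 to 26.7), 8.33 times (3.66 to 22.2) and 1.89 times (1.01 to 3.90) AD, on 3, 7 and 11 AD UMIs. HBEGF had no common direction, with NB at 2.89 and 1.85 times AD in jejunum and cecum and 0.368 times in colon. The summed immediate early genes had this order too, at 13760 and 4804 CPM in NB and AD jejunum, 14810 and 5455 CPM in cecum, and 9328 and 13040 CPM in colon, and their part in the AREG and HBEGF ratios was not tested. EGFR was higher in AD cecum, by 9.88 times (1.54 to 414), and in AD colon, by 6.01 times (2.26 to 16.4), but had 1 UMI in NB jejunum and 0 in AD jejunum.

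Called by the same rule in all 3 tissues, 0 of 5 members were higher in NB epithelium, where 1.1 percent of 8634 genes were called, and 0 were lower, where 2.59 percent were called. The mean log2 differences were 1.18 for AREG, -0.89 for ERBB3, -0.89 for ERBB2, -0.44 for BTC and 0.07 for HBEGF. The median of the 5 was -0.44, beside -0.25 over all genes, so the median gene was lower in NB as well. AREG reached 10 CPM only in NB libraries, and BTC and HBEGF only in AD ones. These counts and this median depend in part on that limit. Without colon AREG was called higher in NB. Plasma cell markers, which epithelial cells lack, summed to 1879 to 11720 CPM in AD epithelium of these tissues and to 13.2 to 169 CPM in NB, and their part was not tested. In AD colon, 2 clusters with mainly plasma cell or T cell markers, of which the first also had the goblet cell genes SPINK4 and CLCA1, held 66 of the 176 barcodes, and without them ERBB3 was at 229 CPM and AREG at 8.43 CPM, closer to the 11.7 CPM of NB colon.

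In COL1A2 barcodes only colon had both stages. There NB was 2.95 times (2.40 to 3.65) AD for AREG, 5.22 times without the AD barcode that held 51 of 117 UMIs, 2.69 times without the highest NB barcode and 4.77 times without both. NB was 4.55 times (1.32 to 24.2) AD for BTC, while EREG was 19.9 times (3.095 to 835) higher in AD, at 16.1 CPM. This EREG ratio rests on 16 UMIs in AD and 1 in NB. In the 2 AD colon clusters of at least 30 barcodes EREG was at 0 and 4.86 CPM, so most of these UMIs lay in smaller clusters. The COL1A2 barcodes of the newborn libraries had at most 4.24 CPM of EREG, in jejunum.

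**Figure D5:**
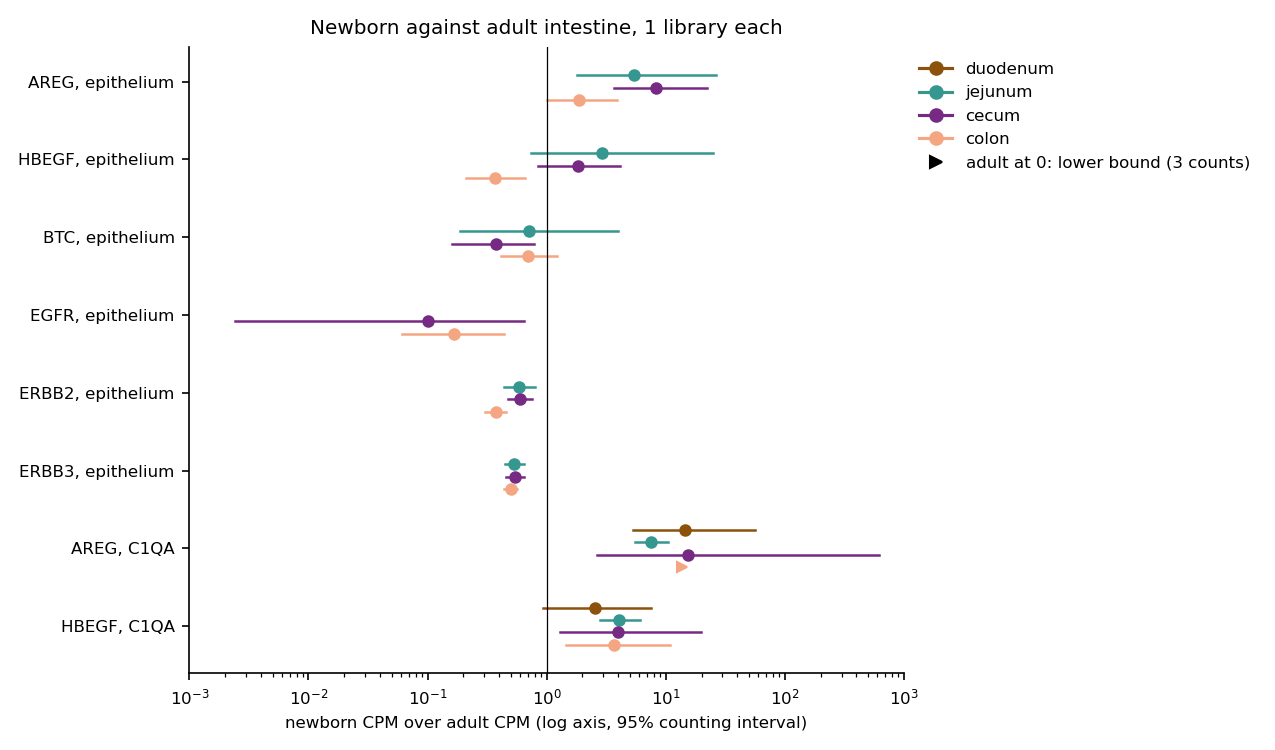
Ratio of the NB to the AD level on a log axis, by member, class and tissue, with 95% intervals for counting error and a triangle for a lower bound. AREG lies above 1 in the epithelium of 3 tissues and the C1QA barcodes of 4, and ERBB2 and ERBB3 lie below 1 in the epithelium of the 3 tissues drawn, which leave out duodenum.

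The other genes of the pathway were taken from a list of 69, of which 45 were tested in forestomach against NB intestinal epithelium. Of these, 10 were higher and 3 were lower, with a median log2 difference of 0.29 beside 0.09 over all genes and 11.4 percent of all genes called in each direction. Among the transcriptional targets 4 of 9 were higher. IER3, a gene induced early by growth factors, was at 760 to 927 CPM in the forestomach and 40.8 to 131 CPM in the NB intestine (3.61), and the cyclin gene CCND1 at 40.4 to 57.8 and 1.22 to 33.9 CPM (1.80). Besides the 3 genes with the largest differences in each direction, the genes of this list that follow were chosen after their values were seen. MYC differed by 1.37. Of the signal carriers, HRAS (1.63) and MAP2K1 (1.37) were higher and MAPK3, which encodes ERK1, was lower, at 11.1 to 14.4 CPM in the forestomach and 52.1 to 116 CPM in the intestine (-2.36). Of the inhibitors, SPRED1 (1.91) and ERRFI1 (1.54), which encodes a direct inhibitor of EGFR, were higher, and CBLC (-1.45) and SPRY2 (-1.40) were lower. NRG1 was higher in forestomach epithelium (1.70), where its receptor ERBB3 was lower. Of the 2 rows with the symbol NRG1, this list and the likeness below used the first, and the cluster levels above are the sum of both. Summed, NRG1 was at 18.6 to 24.8 CPM in forestomach and 0.115 to 1.21 CPM in NB intestinal epithelium (2.26). Of 6 shedding genes, the 1 called was TIMP3, a protease inhibitor (1.73). Of 23 immediate early genes tested, 10 were higher and 1 was lower, and their sum was 14330 to 14940 CPM in the forestomach and 7004 to 15510 CPM in the NB intestine.

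The same pathway list was read in the other comparisons, with fewer calls in each. In COL1A2 barcodes 7 of 50 were higher in the forestomach and 4 lower, beside 4.37 and 8.58 percent of all genes, with a median of 0.05. The largest differences were those of IER3 (1.33), MYC (1.28) and LRIG3 (1.23) upwards and of PHLDA2 (-4.29), NRG1 (-3.67) and SPRY2 (-1.56) downwards. With both rows NRG1 was at 0 to 9.83 CPM in the forestomach and 120.1 to 324 CPM in the NB intestine (-4.31). In PECAM1 barcodes 2 of 51 were higher, CCND1 (1.33) and IER3 (1.19), and 0 lower, beside 1.89 and 6.75 percent of all genes. Between stages 1 of 43 was higher in NB epithelium, IER3 (2.33), and 0 were lower, beside 1.1 and 2.59 percent of all genes. In C1QA barcodes 4 of 45 were higher in NB, including EGR1 (3.71), PHLDA1 (3.14) and IER3 (3.08), and 1 was lower, CBLB (-1.47), beside 1.53 and 1.39 percent of all genes. EGR1 and IER3 are also on the immediate early list, of which 15 genes were higher and 0 lower in NB C1QA barcodes.

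Across 52 groups of 1 class in 1 library, the genes with the pattern most like each member were found among 11157 genes by the correlation of log2(CPM + 5). These groups share libraries and depth, and the values are descriptions. For AREG the closest was NRG1 (r = 0.75), followed by CSPG4 (0.73) and COL4A5 (0.725), and for HBEGF they were EXOSC5 (0.685), GTSE1 (0.67) and CLIC1 (0.67). For EGFR they were ARHGAP42 (0.87), FGFR2 (0.87) and CA3 (0.865), and for BTC PKIA (0.83), PPARGC1A (0.82) and GAREM1 (0.82). ERBB3 was closest to PLPP2 (0.95), TMEM54 (0.94) and AS3MT (0.935), and ERBB2 to ACOX2 (0.89), ABHD17C (0.89) and ADCY6 (0.88). Between members, ERBB2 and ERBB3 had r = 0.80, and AREG and HBEGF had r = 0.05 over all classes.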

How the data were processed

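The authors made the deposited count matrices with Cell Ranger 3.1.0 per the labels, on ARS-UCD1.2 per the study's methods, as UMI counts per gene and barcode from 10x 3′ libraries of newborn and adult cattle. Kept barcodes had 500 to 4000 genes, fewer than 50000 UMIs and a mitochondrial share below 40%. The highest Scrublet scores (Scanpy 1.11.5) were removed at 0.8% of barcodes per 1000. Classes needed at least 1 UMI of their own gene and none of the other class genes or PTPRC, except that PTPRC was allowed in C1QA barcodes, and at least 30 barcodes. Counts were summed per class and library and scaled to CPM. Differences used log2(CPM + 5), over genes at or above 10 CPM in 1 group. Clusters (Leiden, resolution 1) used 2000 variable genes without the members, and 30 components. Intervals are exact Poisson or exact binomial at 95% (SciPy 1.17.1), and a count of 0 was read as up to 3 counts. Genes named outside the members were the class markers, the 3 most alike per member, the 3 largest differences of the pathway list in each direction or, where said, chosen after their values were seen. The members and lists were chosen with earlier results of these data known. The call rule, and not the classing of barcodes, was tested on simulated counts of each class and library. Of 100 genes changed 3-fold, 98 were called in the epithelial region, 86 in the COL1A2 region and 91 in the epithelial stage comparison. In the C1QA stage and PECAM1 region comparisons 81 and 100 were called. The changed genes were drawn only from genes of high level, and simulated libraries differed by counting error alone. These rates therefore do not cover members of low level or spread between animals. Of unchanged genes, 273 of 8625 were called in the COL1A2 region comparison, 29 of 8026 in the PECAM1 region comparison and 0 in the other 3. edgeR 4.0.16 gave an alternative scaling only. Sequences of the members were not used here.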

Additional observations from a re-analysis of the deposited data

Results flagged for a closer look

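In 2 of 18 groups of newborn intestinal libraries, 1 library stood apart from the others of its group. AREG in COL1A2 barcodes was at 346 CPM in NB colon, where the other NB intestinal libraries ran from 23.7 to 128 CPM, and the gap to the nearest library was 0.676 of the range. AREG in C1QA barcodes was at 50.7 CPM in NB rectum, where the others ran from 2.87 to 20.3 CPM, and the gap was 0.636 of the range. In the rectum the level without its highest barcode was 37.1 CPM. The limit used (Dixon, 95%) nominally marks about 1 in 20 groups by chance.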

How the results depend on the processing

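No paired analysis was possible because each tissue and stage had 1 library and no replicate numbers to pair, and the stage comparisons are differences within tissues. Of the counts of members called under the alternatives, 156 stayed within 1.5 times the reported count and 12 moved, and no call changed direction. Of the members' log2 differences, 109 moved and 563 did not, and the share of all genes called moved in 10 settings. In epithelium between regions, the count of lower members was 2 (EREG and ERBB3) with a pseudocount of 1 CPM. In COL1A2 barcodes between regions, the count of higher members was 1 (HBEGF) where other class genes were not excluded, and that of lower members was then 0. It was 1 (BTC) with at least 2 UMIs of the class gene, 1 (ERBB3) after thinning, and 1 to 3 when each library was left out in turn, with 1 without reticulum. In epithelium between stages, the count of higher members ran from 0 to 1, with AREG called without colon. In C1QA barcodes, the count of higher members was 0 where other class genes were not excluded, with at least 2 UMIs of the class gene, after thinning, and with the highest barcode left out, the last alternative being added after seeing the data. In PECAM1 barcodes it was 0 after thinning. The AREG difference in epithelium between regions was 2.02 with no upper limit on genes, 1.59 under 10% mitochondrial UMIs, 1.65 without genes above 1% of UMIs and 1.55 after thinning, each with overlapping libraries and 2 members called. The cause of these losses was not tested. The median of all genes moved from 0.09 to -0.18 in epithelium between regions without genes above 1%, from -0.25 to 0.01 in epithelium between stages with TMM, and from -0.15 to 0.01 in PECAM1 barcodes where other class genes were not excluded. Depth limits the AD epithelium, the forestomach COL1A2 and PECAM1 barcodes, and EREG and TGFA in every class.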
